A study of Mus musculus with 48 samples.

Results

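The data described here are the kidney arrays of a mouse series on sex-specific transcription, read for genes on the 19 autosomes. Male and female kidney samples that carry the same number were compared as pairs. Of the 48 arrays of the series, 12 were from kidney. They held 3 male and 3 female RNA samples, each hybridised to 2 arrays, and the log2 values of the 2 arrays were averaged. The other arrays held liver and hypothalamus of both sexes, testis and ovary. Per the labels the kidney RNA was bought and polyA-selected, although another field calls it total RNA, and 10 animals were pooled for each RNA. The labels give no strain, age or treatment, and they do not say that the 3 pools of a sex held different animals, so the spread between samples may be technical. Of 12369 genes with 1 probe set or more that names a single gene, 11957 were autosomal, and 8205 of these were bright enough in kidney to be tested.

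The mouse kidney is a textbook case of a dimorphic organ. Its proximal tubule cells carry the androgen receptor, and androgen raises many of their enzymes and transporters, while other genes of the same cells are held higher in females. The tubule takes up organic anions, amino acids and peptides from blood and filtrate, and it oxidises, conjugates and excretes steroids, drugs and fatty acids. Enzymes of 3 kinds recur below: cytochromes P450, which add oxygen, UDP-glucuronosyltransferases, which attach a sugar acid, and glutathione S-transferases, which attach glutathione.

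Intensities are the deposited values after scaling, per RNA sample, and a difference is the male minus the female mean of log2 (intensity + 48.3), with the SE of a limma fit that holds the sample number as a block. A gene was called where its Benjamini-Hochberg adjusted p, taken over all 13799 probe sets tested, was under 0.05, and it is stood for by its brightest tested probe set. Of the 8205 genes, 96 were called, which is 1.17%. Of these, 61 were higher in male kidney (0.743% of the genes tested) and 35 were lower (0.427%). The median difference was 1.07 among the 61 and -1.04 among the 35, against -0.01 over all genes tested. A difference above 2-fold (1 on the log2 scale) was reached by 33 genes higher and 19 genes lower in male kidney, and one above 4-fold by 13 and 3 genes. All 96 genes had the same sign in all 3 pairs, as did 34.6% of all genes tested, and the paired fit that chose the 96 favours this. In 85 of them the values of the sexes did not overlap, where 10.1% of all genes tested had values that did not overlap. The choice of the 96 by these same values favours this as well.

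**Figure D1:**
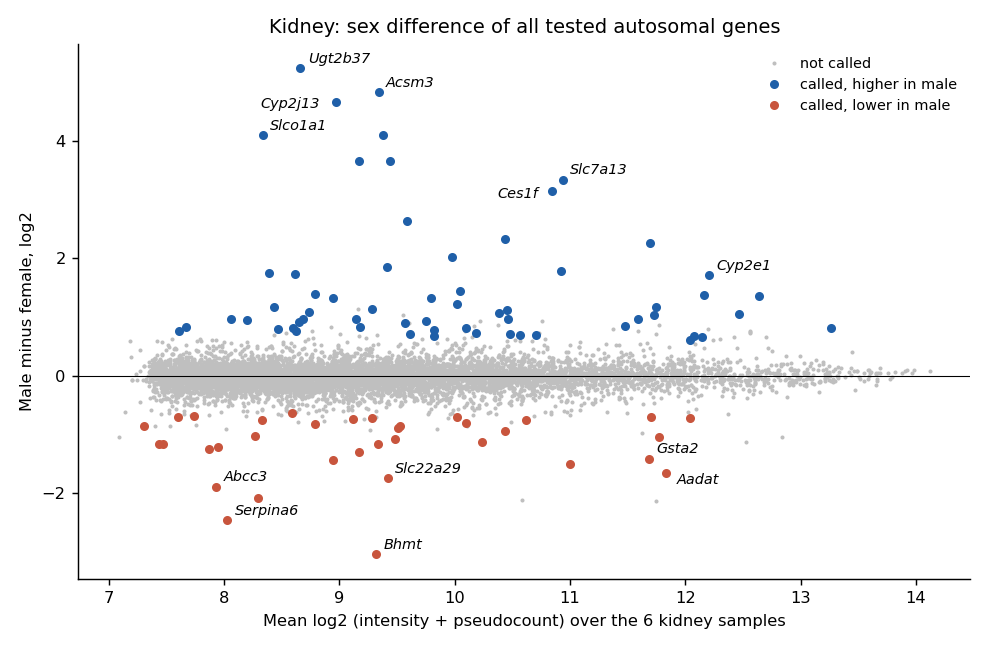
Difference between male and female kidney (log2, y axis) against mean log2 level (x axis) for the 8205 autosomal genes tested. Blue points are the 61 genes called higher in male kidney, red points the 35 called lower, and grey points the genes not called. The points farthest from 0 lie on the male side, up to 5.24 for Ugt2b37, against -3.04 for Bhmt on the other side.

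One male sample stood apart from the other two. Among the 61 genes higher in male kidney, male sample 2 was the lowest male in 47, and among the 35 genes lower in male kidney it was the highest male in 24. The difference was smallest in pair 2 for 72 of the 96 genes, and its median over the 61 genes was 1.22, 0.85 and 1.23 in pairs 1, 2 and 3. Without pair 2, which leaves 2 pairs, 55 of the 96 genes were called, 36 higher and 19 lower in male kidney, with medians of 1.15 and -1.16. Without pair 1, 38 were called (23 and 15), and without pair 3, 48 were called (28 and 20). All 96 kept their sign in each case, as they must, since all 3 pairs of each gene had the same sign. Without the replicate block 23 of the 96 genes were called.

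Ugt2b37, Acsm3 and Bhmt, the 3 genes set as markers of the comparison, are given first. Ugt2b37, a UDP-glucuronosyltransferase, had intensities of 4437, 1081 and 3006 in male samples, against 19.8, 6.15 and 29.2 in female samples, a difference of 5.24 ± 0.27 (SE, limma adjusted p = 0.000453). All 3 female samples lay near the bottom of the scale and all 3 male samples among the well-measured genes, with male sample 2 the lowest. Acsm3, a mitochondrial enzyme that activates medium-chain fatty acids, had 7213, 1416 and 3870.5 in male samples, against 91.5, 63.8 and 65.8 in female samples, a difference of 4.84 ± 0.32 (limma adjusted p = 0.00107). The males were spread with the same sample lowest, and the female samples lay close together far below them. Bhmt, which remethylates homocysteine to methionine with betaine as the donor, ran the other way, with 126, 243 and 169 in male samples, against 1861, 1602 and 1909 in female samples. Its difference of -3.04 ± 0.18 was the largest on the female side (limma adjusted p = 0.000943), and the groups did not overlap. The size of these differences moved with the pseudocount of 48.3, which lies above every female value of Ugt2b37. With the pseudocount divided by 4 and with 4 times the pseudocount, the difference was 6.45 and 3.65 for Ugt2b37, 5.34 and 3.77 for Acsm3 and -3.28 and -2.42 for Bhmt. The order of Ugt2b37 and Acsm3 thus turned under the larger pseudocount. Of the 96 called genes, 11 moved by more than 1.5-fold under these 2 settings, and all 96 kept their sign. The other 8 were Cyp2j13, Slco1a1, Cyp7b1, Slc22a30, Pzp, Abcc3, Ly6f and Serpina6.

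The promoters of these 3 genes and of Slco1a1 are printed because they stand before the genes with some of the widest differences between the sexes. Each is the 250 bases before the gene's start on the gene's own strand, from RefSeq on build GRCm38.p6. Capitals mark AGGTCA on either strand, the half-site of several nuclear receptors, which was chosen after the sequences had been read. The positions are chr5:87254789-87255038 (minus strand) for Ugt2b37, chr7:119760673-119760922 (plus strand) for Acsm3, chr6:141946963-141947212 (minus strand) for Slco1a1 and chr13:93637759-93638008 (minus strand) for Bhmt.
Ugt2b37: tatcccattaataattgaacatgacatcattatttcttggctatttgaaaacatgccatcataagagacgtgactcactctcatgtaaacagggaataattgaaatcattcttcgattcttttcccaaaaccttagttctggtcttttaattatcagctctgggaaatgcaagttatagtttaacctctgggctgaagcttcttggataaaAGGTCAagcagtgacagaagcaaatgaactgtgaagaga
Acsm3: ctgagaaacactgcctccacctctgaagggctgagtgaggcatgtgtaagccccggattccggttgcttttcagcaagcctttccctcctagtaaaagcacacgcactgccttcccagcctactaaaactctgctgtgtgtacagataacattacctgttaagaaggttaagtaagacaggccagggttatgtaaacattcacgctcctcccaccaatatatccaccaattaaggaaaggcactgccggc
Slco1a1: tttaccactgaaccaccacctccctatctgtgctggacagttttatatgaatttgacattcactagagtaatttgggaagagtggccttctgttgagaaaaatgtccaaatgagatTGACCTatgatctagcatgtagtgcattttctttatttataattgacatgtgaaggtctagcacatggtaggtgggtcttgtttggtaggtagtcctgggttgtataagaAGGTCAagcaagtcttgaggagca
Bhmt: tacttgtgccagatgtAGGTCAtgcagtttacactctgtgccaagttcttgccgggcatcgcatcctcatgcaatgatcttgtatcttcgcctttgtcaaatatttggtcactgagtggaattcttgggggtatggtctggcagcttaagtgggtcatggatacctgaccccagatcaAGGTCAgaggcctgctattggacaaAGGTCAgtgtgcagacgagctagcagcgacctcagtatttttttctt
Ugt2b37 held 1 such half-site, Slco1a1 held 2, Bhmt held 3 and Acsm3 held 0. A promoter was found for 48 of the 61 genes higher in male kidney and for 24 of the 35 lower ones. AGGTCA was present in 9 of the 48 and 4 of the 24, against 15.8% of the 25748 autosomal genes with a promoter. The androgen receptor half-site TGTTCT was present in 5 of the 48 and 2 of the 24, against 18.2% of all, and the full palindromic element, written as 2 half-sites 3 bases apart, in 0 and 0, against 0.0117% of all. TATAAA, the TATA box, was present in 12 of the 48 and 5 of the 24, against 14.4% of all. The antioxidant response core TGACNNNGC was present in 2 of the 48 and 3 of the 24 (11.7% of all), the STAT5 site TTCNNNGAA in 2 and 1 (8.20%), the HNF4 site CAAAGTCCA in 2 and 1 (0.462%) and an HNF1 site in 0 and 1 (0.447%). Both strands were searched, and each count covers the 250 bases only.

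**Figure D2:**
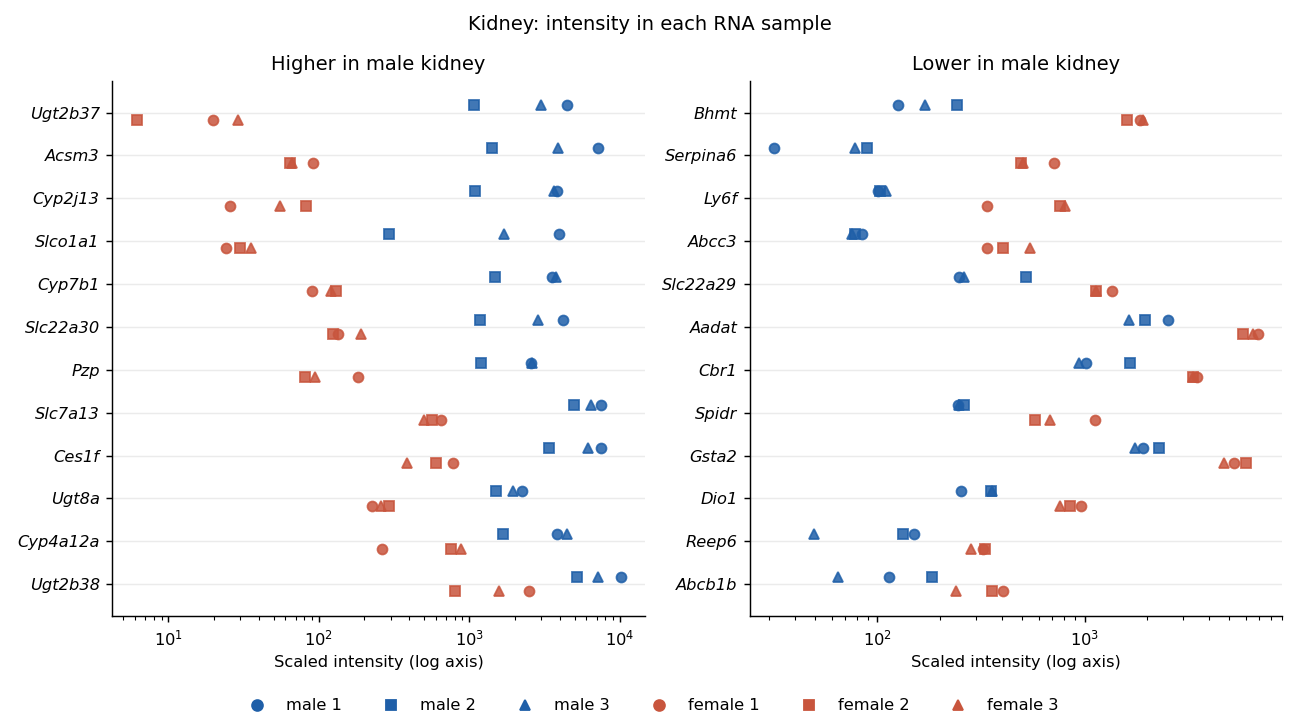
Intensity (x axis, log scale) in each of the 6 kidney RNA samples for the 12 called genes with the widest positive difference (left panel) and the 12 with the widest negative difference (right panel). Blue marks are male samples, red marks female samples, and circle, square and triangle stand for samples 1, 2 and 3. In every gene shown the male and female marks do not overlap, and the male square is the lowest male mark in all 12 genes on the left.

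Enzymes that oxidise and conjugate steroids and foreign compounds moved in both directions. Of 30 cytochrome P450 genes measured, 6 were higher and 2 lower in male kidney (26.7% called, against 1.17% of all genes tested). Cyp2j13 had intensities of 3823, 1086 and 3638 in male samples, against 25.8, 82.0 and 54.8 in female samples (difference 4.66 ± 0.42, limma adjusted p = 0.00330). Cyp7b1, which hydroxylates oxysterols and some steroids, had 3533, 1473 and 3782 in male samples, against 89.7, 131 and 121 in female samples (difference 4.09 ± 0.28, limma adjusted p = 0.00116). In both genes the lowest male value, that of sample 2, lay far above the highest female value. Cyp4a12a, which makes the vasoactive lipid 20-HETE from arachidonic acid, had 3799.9, 1685 and 4488 in male samples, against 264, 759 and 883 in female samples (difference 2.34 ± 0.39, limma adjusted p = 0.0446). Its pairs were uneven, with differences of 3.62, 1.10 and 2.28 in pairs 1, 2 and 3.

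Cyp2d9, a steroid 16-alpha-hydroxylase known as a male marker of mouse liver, had 2303, 1962 and 1719 in male samples, against 363, 612 and 413 in female samples (difference 2.02 ± 0.17, limma adjusted p = 0.00276). Cyp2e1, which oxidises ethanol and ketone bodies, had 9618, 7032 and 9128 in male samples, against 2854, 2879.7 and 2040.1 in female samples (difference 1.71 ± 0.17, limma adjusted p = 0.00468). Male sample 2 was not far from the other males in these 2 genes, and the groups did not overlap. Cyp4b1 was the brightest of the P450 genes called and differed least of the 6, with 13362, 11813 and 14053 in male samples, against 7554, 7971 and 6689.7 in female samples (difference 0.82 ± 0.13, limma adjusted p = 0.0398). The 2 P450 genes lower in male kidney were members of the family of Cyp2d9. Cyp2d26 had 2116, 3386 and 2359 in male samples, against 3686, 4909.6 and 4121 in female samples (difference -0.70 ± 0.12, limma adjusted p = 0.0429), and Cyp2d12 had a difference of -1.02 ± 0.12 (limma adjusted p = 0.0119) with a male sample 2 above female sample 1. The Cyp2d genes are close relatives, and a probe set of one may read another.

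Of 14 UDP-glucuronosyltransferases and sulfotransferases measured, 4 were higher and 1 was lower in male kidney (35.7% called, against 1.17% of all genes tested). Beside Ugt2b37, Ugt2b38 had 10109, 5215 and 7135 in male samples, against 2481, 799 and 1579.8 in female samples (difference 2.26 ± 0.14, limma adjusted p = 0.000984). Ugt8a, which makes the sphingolipid galactosylceramide, had 2235, 1505 and 1946 in male samples, against 226, 294 and 258 in female samples (difference 2.65 ± 0.17, limma adjusted p = 0.000984). The sexes were apart in both, and Ugt8a varied little within each sex. Ugt3a1, a related enzyme that uses other sugars, had a difference of 0.84 ± 0.11 (limma adjusted p = 0.0228) by the brighter of its 2 probe sets. Ugt2b34 ran the other way, with 655, 960.4 and 719.9 in male samples, against 1716, 1898 and 1629.6 in female samples (difference -1.13 ± 0.12, limma adjusted p = 0.00762). Genes of the Ugt2b family, which lie together on chromosome 5, were thus called in both directions. The other 9 genes of the list had differences between -0.35 and 0.21.

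Glutathione S-transferases and efflux pumps were called only as lower in male kidney. Of 18 glutathione S-transferases, 3 were lower and 0 higher (16.7% called, against 1.17% of all genes tested). The median was -0.39 and 13 were lower by sign. An unadjusted p under 0.05 was found for 11 of the 18 on the lower side and 0 on the higher. Over all genes tested these shares were 6.98% and 5.48%. Gsta2 had 1914, 2287 and 1749.6 in male samples, against 5286, 6042 and 4698 in female samples (difference -1.41 ± 0.11, limma adjusted p = 0.00184). Gsta4, which clears the lipid peroxidation product 4-hydroxynonenal, had 347, 442 and 576 in male samples, against 991, 859 and 1130.1 in female samples (difference -1.07 ± 0.14, limma adjusted p = 0.0179). In both genes every male sample lay well below every female sample. Gsta3 had a difference of -0.88 ± 0.13 (limma adjusted p = 0.0340), and its groups overlapped, since female sample 3 lay below male sample 2. Mgst1, a membrane-bound member, had 2769, 4407 and 2961 in male samples, against 4920.2, 6066 and 4428 in female samples and did not pass (difference -0.62 ± 0.12, limma adjusted p = 0.0780).

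The stress-responsive transcription factor NRF2 is known to raise several of these transferases. Of 23 NRF2 target and glutathione genes, 1 was lower and 0 were higher (4.35% called, against 1.17% of all genes tested), with a median of 0.10. The 1 gene was Cbr1, a carbonyl reductase, with 1021, 1667 and 937 in male samples, against 3497, 3355 and 3324 in female samples (difference -1.50 ± 0.17, limma adjusted p = 0.0104), all 3 male samples far below the females. Gclc, which starts glutathione synthesis, had 2713, 2278 and 1827 in male samples, against 1986, 1747 and 1390.0 in female samples (difference 0.40 ± 0.11, limma adjusted p = 0.181). A dimmer probe set of Gclc was at 0.09 and did not pass either. Of 21 ATP-binding cassette transporters, 3 were lower and 0 higher (14.3% called, against 1.17% of all genes tested). Abcc3, which exports glucuronides and bile acids, had 83.9, 78.3 and 74.9 in male samples, against 339, 406 and 544 in female samples (difference -1.89 ± 0.15, limma adjusted p = 0.00202), dim in all 3 males. Abcb1b, which encodes 1 of the 2 mouse P-glycoproteins, had 113, 183 and 64.6 in male samples, against 406, 356 and 239.7 in female samples (difference -1.21 ± 0.15, limma adjusted p = 0.0161). Its twin Abcb1a had a difference of -0.64 ± 0.13 and did not pass (limma adjusted p = 0.0831). Abca4 had a difference of -0.71 ± 0.12 (limma adjusted p = 0.0424) at a low level.

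Uptake carriers of organic ions split between the sexes. Of 25 measured, 5 were higher and 3 lower in male kidney (32% called, against 1.17% of all genes tested). Slco1a1, which takes up steroid conjugates and other organic anions, had 3959, 294 and 1693 in male samples, against 24.2, 29.7 and 35.4 in female samples (difference 4.10 ± 0.56, limma adjusted p = 0.0228). Female values were near the bottom of the scale in all 3 samples, while the males spread widely, with male sample 2 far below the other two. A second probe set of the gene gave the same difference, 4.10. Without the block Slco1a1 did not pass (limma adjusted p = 0.116), and without pair 2 its difference was 5.08. Slc22a30 had 4224, 1183 and 2843 in male samples, against 134, 125 and 189.9 in female samples (difference 3.66 ± 0.28, limma adjusted p = 0.00184), again with male sample 2 the lowest male. Slc22a6, the main organic anion exchanger of the basolateral membrane (OAT1), had 6239, 3465 and 6099 in male samples, against 2274, 2201 and 2238 in female samples (difference 1.17 ± 0.17, limma adjusted p = 0.0314), and the 3 female values were nearly equal.

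Slco3a1 had a difference of 1.14 ± 0.18 (limma adjusted p = 0.0384), with all of its 3 probe sets called. Slc22a12, the urate exchanger URAT1, had 7295, 3831 and 4930.4 in male samples, against 4818, 2497 and 3119.8 in female samples (difference 0.62 ± 0.11, limma adjusted p = 0.0495). Here the groups overlapped, because both sexes were highest in sample 1 and lowest in sample 2, and only the difference within pairs was even. On the female side, Slc22a29 had 248, 522 and 262 in male samples, against 1363, 1139 and 1132 in female samples (difference -1.75 ± 0.21, limma adjusted p = 0.0143). Slc22a27 had a difference of -1.16 ± 0.19 (limma adjusted p = 0.0398) and Slc22a13, which carries urate and nicotinate, one of -0.70 ± 0.12 (limma adjusted p = 0.0468). The probe sets of Slc22a27 and Slc22a29 are of a design that can read related genes, so the split within this family on chromosome 19 is uncertain.

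Of 25 amino acid transporters 1 was called (4%, against 1.17% of all genes tested). Slc7a13, which carries aspartate and glutamate in the last segment of the proximal tubule, had 7471, 4959.9 and 6439 in male samples, against 644, 568 and 498 in female samples (difference 3.34 ± 0.14, limma adjusted p = 0.000238), with narrow spreads in both sexes and the lowest adjusted p of all autosomal genes tested. Another member of its family, Slc7a12, did not pass, with 371, 1526 and 561 in male samples, against 4512, 2505 and 2724 in female samples (difference -2.11 ± 0.42, limma adjusted p = 0.0858). Every male value was below every female value, but the differences in the pairs ran from -3.44 to -0.70. Atp11a, a phospholipid flippase, had 5969, 3955 and 4800.1 in male samples, against 3041, 2128 and 1932 in female samples (difference 1.04 ± 0.12, limma adjusted p = 0.0137). Slc5a8, which reabsorbs lactate and other monocarboxylates with sodium, was the 1 gene called of 33 (3.03%) in sugar metabolism and transport, with 1269, 689 and 426 in male samples, against 692, 463 and 170.5 in female samples (difference 0.83 ± 0.14, limma adjusted p = 0.0449). Sample 1 was highest and sample 3 lowest in both sexes, so the groups overlapped while each pair differed the same way.

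Fatty acid enzymes were called on both sides, 2 higher and 2 lower of 53 (7.55%, against 1.17% of all genes tested). Beside Acsm3, Pecr, a peroxisomal enoyl-CoA reductase, had 5271, 4515 and 6691 in male samples, against 3346, 3042 and 3792 in female samples (difference 0.67 ± 0.11, limma adjusted p = 0.0454). Acaa2, the thiolase of mitochondrial beta-oxidation, had 1884, 5083 and 3579 in male samples, against 3507, 7189 and 6112 in female samples (difference -0.71 ± 0.12, limma adjusted p = 0.0472), with 1 of its other probe sets at -0.21 that did not pass. Acot7, which cleaves long-chain acyl-CoA, had 456, 493 and 557 in male samples, against 932, 851 and 1045 in female samples (difference -0.85 ± 0.11, limma adjusted p = 0.0210). Males and females overlapped for Acaa2 and were apart for Acot7. Cd36 and Hacl1, chosen after their values were seen, belong beside them. Cd36, which takes up long-chain fatty acids, had 3432, 1409 and 1698 in male samples, against 1121, 913 and 707 in female samples (difference 1.13 ± 0.18, limma adjusted p = 0.0398), and Hacl1, of peroxisomal alpha-oxidation, had a difference of -0.94 ± 0.15 (limma adjusted p = 0.0386).

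In amino acid metabolism the widest differences, those of Bhmt and Aadat, were on the female side. Of 28 methionine, homocysteine and one-carbon enzymes, Bhmt was lower in male kidney and Cbs and Ftcd were higher. This was 10.7% of the list, against 1.17% of all genes tested. Cbs, which takes homocysteine towards cysteine, had 1975, 1761 and 2580.0 in male samples, against 1271, 1171 and 1377 in female samples (difference 0.69 ± 0.12, limma adjusted p = 0.0474). Ftcd, which passes the formimino group of histidine to folate, had 319, 574 and 554 in male samples, against 178, 269 and 339 in female samples (difference 0.77 ± 0.12, limma adjusted p = 0.0373). The Cbs groups were apart and the Ftcd groups overlapped. Of 9 kynurenine, tryptophan and NAD enzymes, 1 was called (11.1%). Aadat, which turns kynurenine into kynurenic acid and transaminates aminoadipate, had 2518, 1964 and 1640.2 in male samples, against 6907, 5849.5 and 6541 in female samples (difference -1.65 ± 0.13, limma adjusted p = 0.00210), every male well below every female. Kmo, which takes kynurenine down the other branch, had a difference of -0.34 ± 0.11 and did not pass (limma adjusted p = 0.273). Of 12 polyamine and ornithine enzymes, 1 was called (8.33%). Arg2, the mitochondrial arginase, was lower in male kidney, with 428, 405 and 319 in male samples, against 788, 607 and 623 in female samples (difference -0.74 ± 0.12, limma adjusted p = 0.0406). Odc1, the first enzyme of polyamine synthesis and a known androgen target in mouse kidney, had 7374, 3944 and 7210.4 in male samples, against 4021, 3318 and 4313 in female samples, and its difference of 0.62 ± 0.14 did not pass (limma adjusted p = 0.130).

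Several called genes encode proteins best known from plasma. Of 17 serpins and plasma protease inhibitors, 2 were higher and 1 was lower in male kidney (17.6% called, against 1.17% of all genes tested). Pzp, a protease inhibitor of the alpha-2-macroglobulin family, had 2557, 1196 and 2604 in male samples, against 181, 80.9 and 94.9 in female samples (difference 3.66 ± 0.18, limma adjusted p = 0.000453). Serpinf2, which inhibits plasmin, had 4178, 2422 and 4428 in male samples, against 967, 979.6 and 1040.5 in female samples (difference 1.79 ± 0.17, limma adjusted p = 0.00443). Serpina6, which carries corticosteroids in blood, had 31.8, 88.7 and 77.9 in male samples, against 716, 494 and 506 in female samples (difference -2.46 ± 0.23, limma adjusted p = 0.00404). In each of the 3 genes the sexes were separated by more than 2-fold between the nearest samples. Ces1f, a carboxylesterase and the 1 gene called of 14 esterases and lipases (7.14%), had 7524, 3409 and 6188 in male samples, against 784, 599.9 and 387 in female samples (difference 3.15 ± 0.24, limma adjusted p = 0.00184) by a probe set that may read other members of its cluster.

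Since liver expresses many of these genes, the list of 16 proteins that liver secretes was read beside them. Ttr, the carrier of thyroid hormone and retinol, was the 1 gene called, which is 6.25% of the list, against 1.17% of all genes tested. Ttr had 6951, 4079 and 6310.5 in male samples, against 4040.3, 2848 and 3907 in female samples (difference 0.66 ± 0.11, limma adjusted p = 0.0495). The median of the list was 0.04. Alb, chosen after its values were seen, had 626, 183 and 1708 in male samples 1, 2 and 3, against 1279, 442 and 301 in female samples, and the sexes overlapped. The summed intensity of the list ran from 8684 to 14709 in male samples and from 6912 to 11712 in female samples. Markers of the adrenal gland, which lies against the kidney, had 0 of 10 called and 7 lower by sign. Their median was -0.14, and -0.14, -0.28 and 0.09 in pairs 1, 2 and 3. Their summed intensity was 8887, 9608 and 9357 in male samples, against 11283, 10976 and 9869 in female samples, every female above every male. Hsd3b1, chosen after its values were seen, had 226, 457 and 283 in male samples, against 1113, 1131 and 116 in female samples, with female sample 3 below every male. The part of liver or adrenal RNA in the differences was not tested.

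Enzymes that set hormone levels were called on both sides, 2 higher and 2 lower of 22 (18.2%, against 1.17% of all genes tested). Hsd17b2, which inactivates estradiol and testosterone, had 392, 290.0 and 301 in male samples, against 117, 162 and 150.4 in female samples (difference 0.97 ± 0.16, limma adjusted p = 0.0406). Akr1c14, a 3-alpha-hydroxysteroid dehydrogenase, had 2382, 1275 and 1589.7 in male samples, against 1165, 603 and 284 in female samples (difference 1.44 ± 0.24, limma adjusted p = 0.0468). The sexes were apart in both genes, for Akr1c14 by little, since female sample 1 came near male sample 2. Akr1c12, a relative of Akr1c14, had 57.5, 89.0 and 57.8 in male samples, against 188, 229 and 217 in female samples (difference -1.17 ± 0.12, limma adjusted p = 0.00546). Dio1, which converts thyroxine to the active hormone, had 254, 352 and 358 in male samples, against 960.0, 855 and 760.2 in female samples (difference -1.30 ± 0.16, limma adjusted p = 0.0141). All male samples of both genes lay well below the lowest female sample.

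Among 41 receptors and signals, Nr1h4, the bile acid receptor FXR, was called, with 1941, 1293 and 1113 in male samples, against 952, 906 and 541 in female samples (difference 0.82 ± 0.14, limma adjusted p = 0.0437). This was 2.44% of the list, against 1.17% of all genes tested, and a single call is not read as a result about a list. Of 16 renin-angiotensin and peptidase genes 1 was higher and 1 lower (12.5% called). Cndp2, a cytosolic dipeptidase, had 11781, 7188 and 12516 in male samples, against 3545, 3229.9 and 5254 in female samples (difference 1.37 ± 0.14, limma adjusted p = 0.00608), and Mme, the membrane peptidase neprilysin, had 791, 978 and 619 in male samples, against 1605, 1446 and 1175 in female samples (difference -0.80 ± 0.13, limma adjusted p = 0.0397). The sexes were apart in both. Of 29 lysosomal hydrolases 1 was called (3.45%). Glb1, the beta-galactosidase, was higher with a difference of 0.97 ± 0.14 (limma adjusted p = 0.0314), and 21 of the 29 were higher by sign, against 48.4% of all genes. Aldh1a7, the 1 gene called of 27 alcohol, aldehyde and retinoid enzymes (3.70%), had a difference of 0.82 ± 0.13 (limma adjusted p = 0.0398). Lists of vitamin D and phosphate genes (20 measured), cholesterol synthesis (19) and circadian clock genes (15) had 0 called.

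Transcription factors and genes of other roles also stood among the widest. Foxq1, a forkhead factor, had 278, 643 and 308 in male samples, against 932, 1213 and 672 in female samples (difference -1.16 ± 0.16, limma adjusted p = 0.0226), with male sample 2 close to female sample 3. Ly6f, of a family of cell surface proteins, had 101, 103 and 110.0 in male samples, against 337, 765 and 802 in female samples (difference -2.07 ± 0.21, limma adjusted p = 0.00576). The 3 male values of Ly6f were nearly equal and the female values were not. Degs2, which makes sphingolipids of the plant type, had 2155, 681 and 1315 in male samples, against 248, 294 and 405 in female samples (difference 1.86 ± 0.30, limma adjusted p = 0.0398). Timd2, a surface receptor that binds ferritin, had 843, 425 and 813 in male samples, against 209, 131 and 166 in female samples (difference 1.73 ± 0.14, limma adjusted p = 0.00202). Reep6 had a difference of -1.24 ± 0.17 (limma adjusted p = 0.0242), at a low level in all males.

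A further 34 called genes fell outside the rule for naming, and the following were chosen after their values were seen. Inmt, which methylates indole amines, had 8639.5, 6298 and 7318 in male samples, against 2240.3, 3551 and 2717 in female samples (difference 1.39 ± 0.20, limma adjusted p = 0.0255). Acy3, an aminoacylase that handles mercapturic acids, had 9723, 5818 and 9354 in male samples, against 4502, 3141 and 4147 in female samples (difference 1.05 ± 0.12, limma adjusted p = 0.00900). Fmo5, a flavin monooxygenase, had 1114, 330.0 and 484 in male samples, against 142, 159 and 108 in female samples (difference 1.75 ± 0.28, limma adjusted p = 0.0398). In these 3 genes all males lay above all females. Bcat1, which transaminates branched-chain amino acids, had 1343, 942 and 1960.4 in male samples, against 537, 302 and 810.0 in female samples (difference 1.32 ± 0.12, limma adjusted p = 0.00299), with both of its probe sets called. Galns, a lysosomal sulfatase, Treh, the trehalase of the brush border, and Proc, the plasma protein C, were higher by 1.23 ± 0.18, 0.93 ± 0.14 and 1.07 ± 0.14 (limma adjusted p = 0.0314, 0.0357 and 0.0226). Ubd, an interferon-induced ubiquitin-like protein, differed by 0.91 ± 0.14 (limma adjusted p = 0.0340), with 164, 2487 and 2025 in male samples, against 90.4, 1064 and 1054 in female samples. Its sample number moved it far more than sex did, and the groups overlapped.

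Lists written for sex-biased kidney genes were read with results of these data already known, so their direction is not independent evidence. Of 32 measured genes that androgen is known to raise in kidney, 15 were higher and 0 lower. This was 46.9% of the list, against 1.17% of all genes tested. The median was 0.74, and 24 were higher by sign, where 48.4% of all genes were. Without pair 2, 14 were called higher and 0 lower. The 15 were Ugt2b37, Acsm3, Cyp2j13, Slco1a1, Cyp7b1, Slc22a30, Pzp, Slc7a13, Ces1f, Ugt8a, Cyp4a12a, Cyp2d9, Timd2, Cyp2e1 and Cyp4b1. The 17 others had differences between -0.56 and 0.81. Adh1, an alcohol dehydrogenase, had 9396, 6480.1 and 9447 in male samples, against 5460.4, 4623 and 5657 in female samples and narrowly missed the threshold (difference 0.67 ± 0.12, limma adjusted p = 0.0519). Kap, named for its androgen control in kidney and chosen after its value was seen, had 15507, 15808 and 16048 in male samples, against 12661, 14721 and 17594 in female samples, a difference of 0.09 ± 0.12 (limma adjusted p = 0.846), and the sexes overlapped.

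Of 15 measured genes listed as higher in female kidney, 7 were lower in male kidney and 2 were higher, with a median of -1.30. This was 60% of the list called, against 1.17% of all genes tested. Without pair 2, 9 were lower and 1 was higher. The 7 were Bhmt, Serpina6, Abcc3, Aadat, Gsta2, Dio1 and Gsta4. The 2 that ran against the list were Slco3a1 and Ttr.

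**Figure D3:**
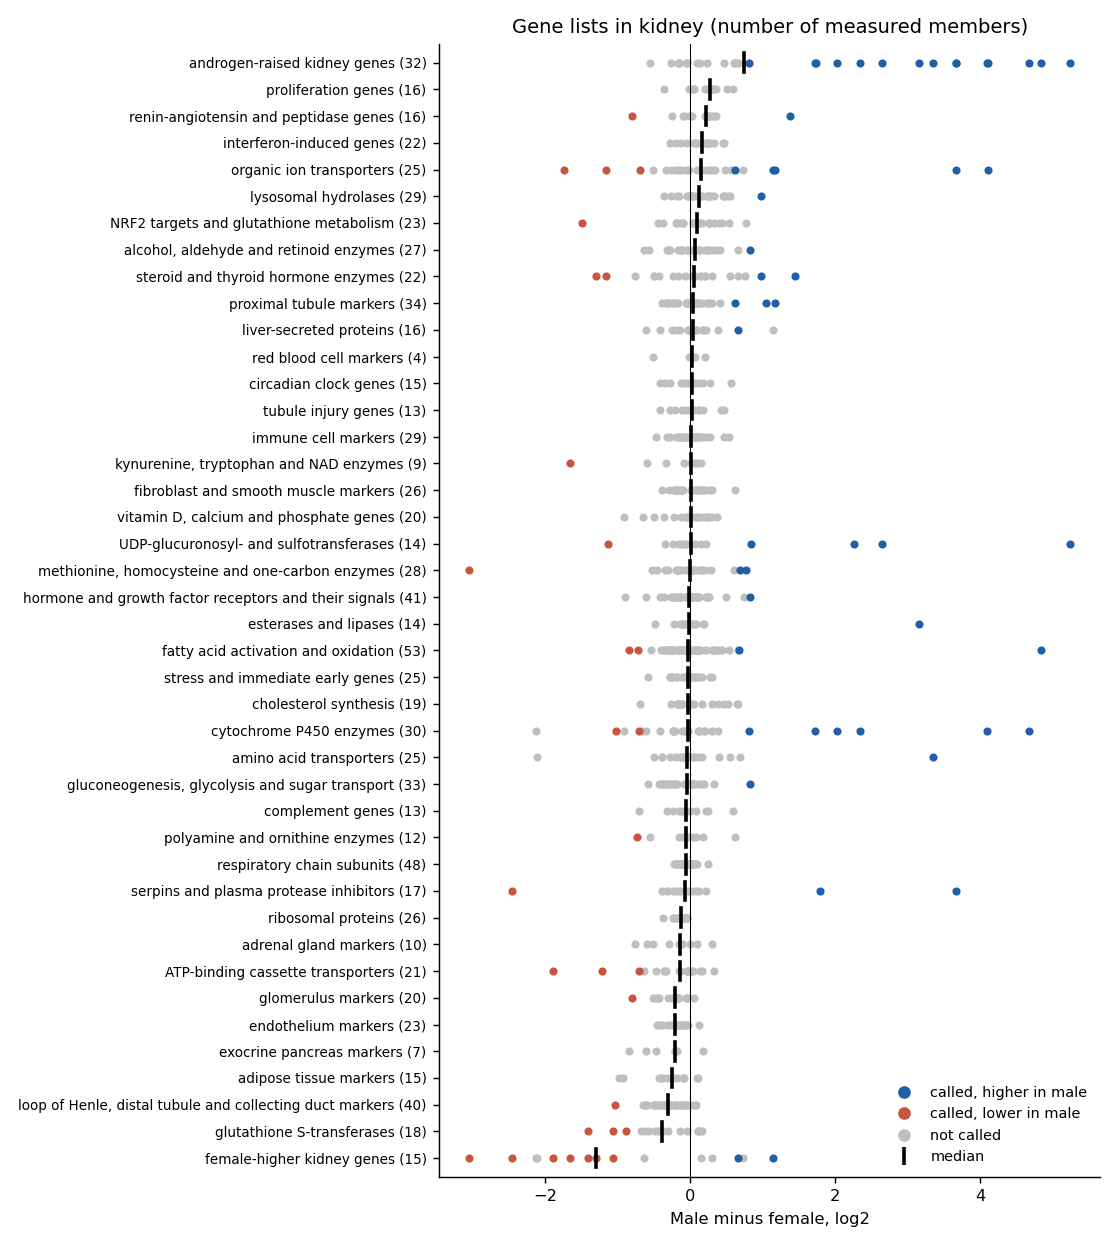
Differences between male and female kidney (log2, x axis) of the measured members of each gene list, 1 row per list with its number of members, ordered by the median (black bar). Blue and red points are members called higher and lower in male kidney, grey points are not called. The list of androgen-raised genes stands at the top with a median of 0.74 and the list of female-higher genes at the bottom with -1.30.

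The labelled tissue was read against markers of its cell types. Of 34 proximal tubule markers 3 were called (8.82%, against 1.17% of all genes tested), all higher in male kidney (Slc22a6, Slc22a12 and Atp11a). The median of the list was 0.04. Core markers were bright in both sexes. Slc34a1, the phosphate carrier, had 12170, 11146 and 12187 in male samples, against 10107, 10696 and 12864 in female samples, and Lrp2, the endocytic receptor megalin, had 5396, 3934 and 5280, against 6871, 5008 and 5229. These 2 genes were chosen after their values were seen, and their groups overlapped.

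Markers of the segments after the proximal tubule lay slightly but broadly lower in male kidney. Of 40 measured, 1 was called (2.5%, against 1.17% of all genes tested), and it was lower in male kidney. By sign 37 were lower, where 51.6% of all genes were, and 20 had an unadjusted p under 0.05 on the lower side and 0 on the higher. The median was -0.30, and -0.40, -0.24 and -0.27 in pairs 1, 2 and 3. The gene called was Wfdc2, a secreted protein of the distal nephron, with 1779.7, 2932 and 2613 in male samples, against 4233, 5109.9 and 5676 in female samples (difference -1.04 ± 0.13, limma adjusted p = 0.0141). Rhcg, the ammonia channel of the collecting duct, had 807, 1144 and 1088 in male samples, against 1597, 1526 and 1687 in female samples and did not pass (difference -0.65 ± 0.13, limma adjusted p = 0.0922), and Ptger3, a prostaglandin receptor, differed by -0.61 ± 0.11 (limma adjusted p = 0.0677). Umod, of the thick ascending limb and chosen after its value was seen, had a difference of -0.08 ± 0.11 (limma adjusted p = 0.843). In RNA from whole tissue, fewer cells of a type and less RNA per cell cannot be told apart.

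Glomerulus markers had 1 called lower of 20 (5%, against 1.17% of all genes tested), Mme, which the proximal tubule also carries. Of the 20 markers 19 were lower by sign, and the median was -0.21. Endothelium markers had 0 called of 23, 22 lower by sign and the same median of -0.21, with the lowest adjusted p at 0.131. Adipose tissue markers had 0 called of 15, 13 lower by sign and a median of -0.25, and exocrine pancreas markers had 0 called of 7 with a median of -0.21. Proliferation genes had 0 called of 16 and 14 higher by sign, with medians of -0.02, 0.41 and 0.34 in pairs 1, 2 and 3. Interferon-induced genes had 0 called of 22, 18 higher by sign and a median of 0.16, with medians of -0.23, 0.40 and 0.28 in pairs 1, 2 and 3. Fibroblast and smooth muscle (26 measured), immune cell (29), complement (13), stress (25), tubule injury (13) and red blood cell (4) lists had 0 called and medians between -0.05 and 0.02. The pairs were uneven in some of these lists. Medians in pairs 1, 2 and 3 were -0.49, 0.32 and 0.27 for tubule injury and -0.12, 0.36 and -0.17 for immune cell genes. All 26 ribosomal protein genes were lower by sign, with 0 called and a median of -0.12, and 0 of 48 respiratory chain subunits were called, with a median of -0.06. Quantile normalization or median centring moved the list medians by at most 0.03.

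Some of the widest differences by size were not called. Among the genes not called, 7 differed by more than 1 on the log2 scale, all with 1 sign in the 3 pairs, and they were chosen for this after their values were seen. Cyp4a14, a fatty acid hydroxylase under control of PPAR alpha, had 1048, 6276 and 595 in male samples, against 5723, 9192 and 6871 in female samples (difference -2.12 ± 0.45, limma adjusted p = 0.0983). Male samples 1 and 3 lay far below every female, while male sample 2 lay above female sample 1. Apoe, the apolipoprotein, had 3778, 8428 and 4096 in male samples, against 9138, 10246 and 12154 in female samples (difference -1.03 ± 0.23, limma adjusted p = 0.113), again with male sample 2 nearest to the females. Hpd, of tyrosine breakdown, had 7359, 4983 and 1664 in male samples, against 9618, 7713 and 8871 in female samples (difference -1.13 ± 0.34, limma adjusted p = 0.232), and here male sample 3 was the low one. Slc7a12, given above, Slc25a48, Aacs and Apoh made up the 7.

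The pairing by number was set before the fits, with earlier results of these data known, and what the samples share is described here. The correlation across probe sets between the deviations of a male and a female sample from their group means was 0.591, 0.426 and 0.627 for the same number and between -0.50 and -0.12 for different numbers. Deviations from a group mean cancel out within a sex, so positive values for the same number bring negative ones for different numbers. Psmb9 of the interferon list and Cfb of the complement list are examples. Psmb9, a subunit of the immunoproteasome, had 751, 3788 and 3518 in male samples, against 822, 3070.1 and 2254 in female samples, and Cfb, complement factor B, had 1497, 3704 and 4173 in male samples, against 1450.3, 2873 and 3264 in female samples. Sample 1 of both sexes was lowest in both genes, by more than 2-fold for Psmb9, and neither passed the test between the sexes (differences of 0.27 ± 0.15 and 0.25 ± 0.12, limma adjusted p = 0.554 and 0.457). The labels do not state what the number stands for.

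**Figure D4:**
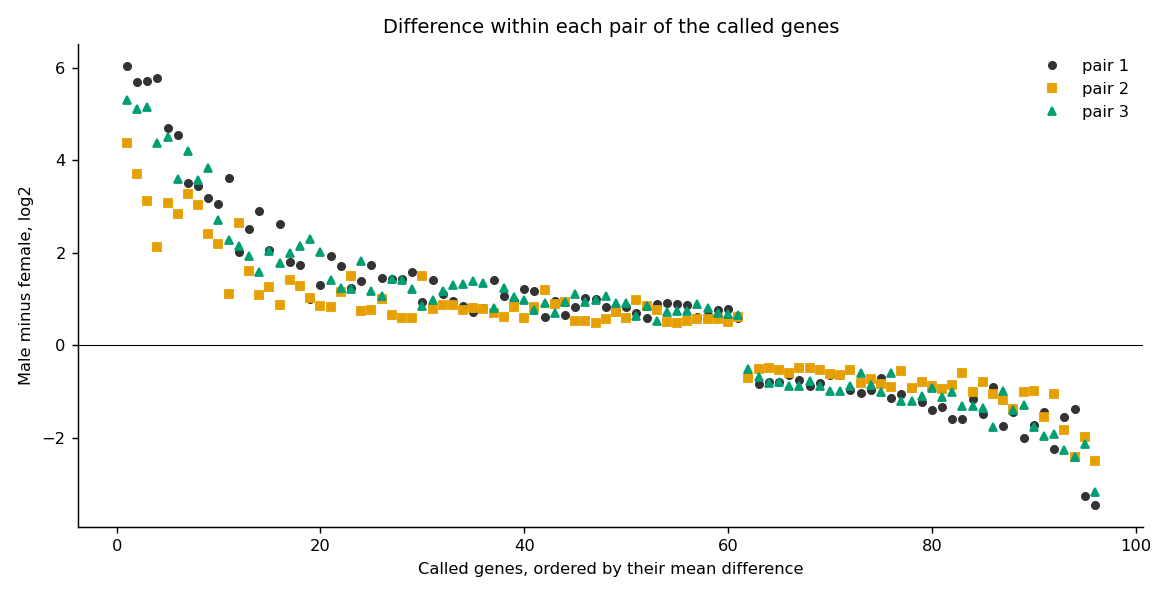
Difference between the male and the female sample of the same number (log2, y axis) for the 96 called genes, ordered from the widest positive to the widest negative mean difference (x axis). Circles, squares and triangles are pairs 1, 2 and 3. No gene crosses 0 in any pair, and the squares of pair 2 lie closest to 0 in 72 of the 96 genes.

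Called genes were spread over all 19 autosomes, from 2 genes each on chromosomes 1 and 14 to 9 on chromosome 4. The share of tested genes that were called was highest on chromosome 19, with 7 of 312. With at most 3 genes between them, 4 pairs of called genes were neighbours. Slc5a8 and Nr1h4 on chromosome 10 were both higher in male kidney. Cebpd, a transcription factor, and Spidr, of DNA repair, stand next to each other on chromosome 16 and were both lower. Cebpd had 188, 420.3 and 286 in male samples, against 436, 772 and 462 in female samples (difference -0.82 ± 0.12, limma adjusted p = 0.0340) and Spidr had 245, 262 and 248 in male samples, against 1122, 579.7 and 679 in female samples (difference -1.44 ± 0.18, limma adjusted p = 0.0180). A dimmer probe set of Cebpd was at -0.27 and did not pass (limma adjusted p = 0.535). On chromosome 19, Slc22a27 and Slc22a29 were both lower, while Slc22a29 and Slc22a30 ran in opposite directions.

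Of the 96 genes, 27 had several tested probe sets, in all 27 every probe set had the same sign, and in 9 all were called. A further 18 genes had only a dimmer probe set called, and in 17 of them the brightest had the same sign. Sdc2, a heparan sulfate proteoglycan chosen after its values were seen, had 2 called probe sets at 0.99 and 1.48 and a brightest one at 0.48 that did not pass. For 11 of the 96 genes the probe set was of a design that can read several genes.

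The sex differences of kidney were then set against those of liver and hypothalamus, by the term for the difference between tissues in a fit of both. The hypothalamus RNA was total RNA by the label that calls the kidney RNA polyA-selected, so a preparation difference runs along that comparison. Against liver, 32 of 9068 genes were called (0.353%), 21 with a more positive and 11 with a more negative difference in kidney. Against hypothalamus, 26 of 9141 were called (0.284%), 20 and 6. Of the 96 kidney genes, 25 were among those called against liver and 26 among those called against hypothalamus. The choice of the 96 favours this, since the kidney difference that chose them is part of the term for both tissues. The same sign as in kidney was seen for 58 of the 96 in liver and 45 of the 96 in hypothalamus. The share over all genes tested was not counted, and some of the 96 were dim in the other tissue, where the sign is uncertain. No sharing between tissues is read from these counts. These counts depend on the pairs, and without pair 3 only 2 probe sets were called against liver and 5 against hypothalamus, where all pairs gave 42 and 38.

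Several genes that differed in kidney were high in liver of both sexes, with male and female means close together. Bhmt averaged 15340 ± 370 in male and 15922 ± 663 in female liver (SD, n = 3 each), and Pzp 18313 ± 2265 in male and 17650 ± 553 in female liver. Serpinf2 averaged 11554 ± 1216 in male and 11722 ± 892 in female liver, and Cyp2e1 15714 ± 1224 in male and 14987 ± 740 in female liver. The difference between kidney and liver was -2.99 for Bhmt, 3.62 for Pzp, 1.81 for Serpinf2 and 1.65 for Cyp2e1 (limma adjusted p = 0.00154, 0.000689, 0.0168 and 0.0233). Aadat, Gsta2 and Abcc3, lower in male kidney, differed by -0.03, 0.40 and 0.11 in liver, and their differences between the tissues passed too.

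Other genes differed in liver in their own way. Cyp4a12a differed by 3.87 in liver and 2.34 in kidney, and the difference between the tissues did not pass (limma adjusted p = 0.467). Slco1a1 differed by 0.80 in liver, and this was not distinguished from kidney either (limma adjusted p = 0.174). Nt5e, the ecto-5-prime-nucleotidase, chosen after its values were seen, was higher in male kidney by 0.97 ± 0.15 and lower in male liver, at -1.05, and the difference between the tissues passed (2.02, limma adjusted p = 0.0125). Of the 32 genes, 7 were not called in kidney, and for 6 of these the wider sex difference lay in liver. Hsd3b5, a male-specific steroid enzyme of liver, averaged 713 ± 491 in male and 8.42 ± 2.98 in female liver, against 11.1 and 14.4 in male and female kidney. Cyp2b13 and Cyp3a16, higher in female liver, differed there by -1.70 and -2.43. Cyp2b13 averaged 1166 ± 369 in male and 3851 ± 1006 in female liver, and Cyp3a16 22.5 ± 18.8 in male and 358 ± 198 in female liver. Cyp2b13 and Cyp3a16 averaged 82.0 and 6.64 in male kidney, against 43.1 and 5.36 in female kidney. Hsd3b5, Cyp2b13 and Cyp3a16 were thus dim in kidney, where a sex difference could not be measured well. Keg1, Elovl3 and Sqle made up the 6, and Sqle ran in opposite directions, at 0.66 in kidney and -0.82 in liver. The other of the 7 was Cpn1, which like Hsd3b5 and Cyp3a16 was too dim in kidney to be tested there. It differed by -1.25 in kidney and 0.02 in liver. Of these 7 genes, Cyp2b13, Cyp3a16, Keg1, Elovl3 and Cpn1 were chosen after their values were seen.

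**Figure D5:**
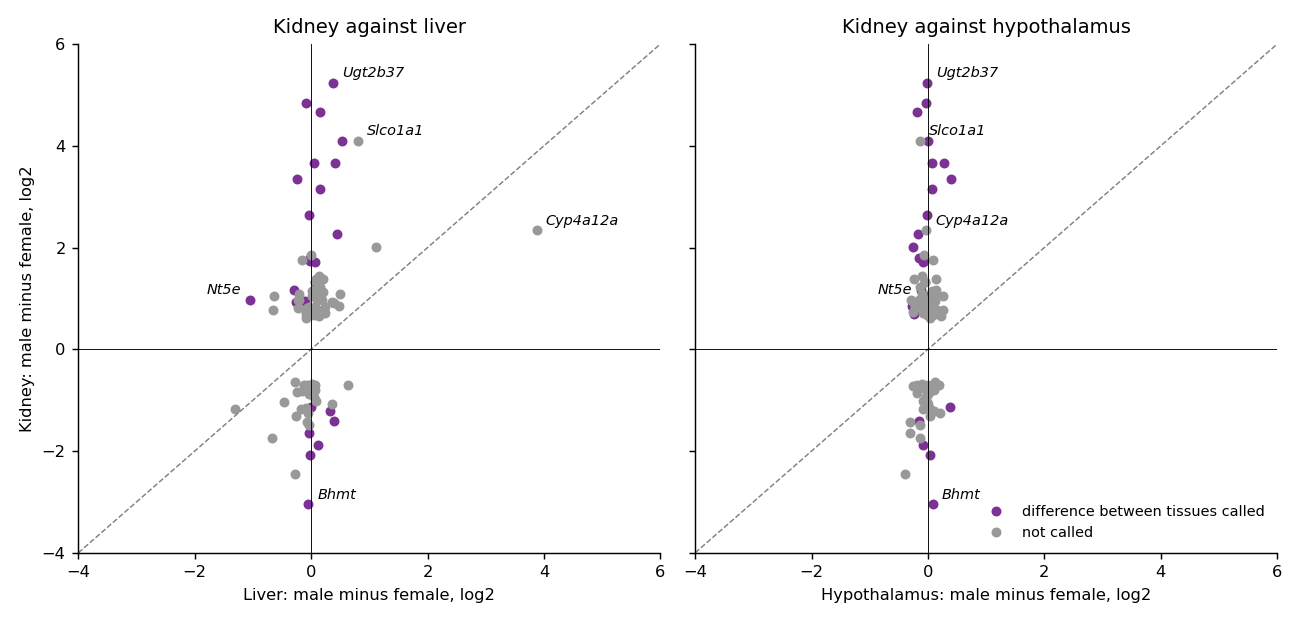
Sex difference in kidney (male minus female, log2, y axis) of the 96 called kidney genes against that in liver (left) and hypothalamus (right, x axes). Purple points are genes whose difference between the tissues was called, and the dashed line marks equal differences. Most points lie near the vertical line at 0, and Cyp4a12a is the 1 gene with a wider difference in liver (3.87) than in kidney (2.34) on the male side.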

How the data were processed

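RNA of mouse tissues was measured on Affymetrix arrays, and the kidney arrays were analysed here. Each deposited value is the linear intensity of 1 probe set on 1 array. The sources used here name no software for them. Each array had a 2% trimmed mean between 500.115 and 500.228, so the authors had set the 48 arrays to a common scale, and kidney medians lay between 178 and 205. The 2 arrays of each kidney RNA correlated at 0.978 to 0.990 and none were identical. The unit of each test was the RNA sample, 3 per sex, and the small number of these and of their arrays limits the precision.

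Of 22626 probe sets left after 64 controls, 20380 had 1 gene symbol, 691 several and 1555 none. Symbols and chromosomes came from the platform annotation and, by Entrez ID (20351 matched), from RefSeq on GRCm38.p6. Only probe sets with a single symbol are named. Arrays were scaled to 1 trimmed mean, log2 was taken after adding a pseudocount of 48.3 (the 20th percentile), and the values of both arrays were averaged per RNA. Differences of dim genes shrink through the pseudocount. Testing was limited to probe sets over the 40th percentile of their arrays in 3 or more RNA samples. Detection calls were not used here.

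Groups, taken from the array titles, were fitted by lmFit and eBayes of limma 3.58.1 (R 4.3.3), with sex and sample number in the fit and Benjamini-Hochberg adjustment over all tested probe sets, sex-linked ones included, at 0.05. The numbers come from the titles. The block by number was set beforehand, with earlier results of these data known in which same-numbered samples deviated together. The correlation of deviations, above 0.1 for each number (0.591, 0.426 and 0.627), describes this and was not a test. Differences between tissues were interaction terms of a joint fit with the number within tissue as a block. The fits were also run on simulated data with known changes and independent normal noise. Such data cannot test the uneven pairs or the choice of the block. Plots used matplotlib 3.10.9 (Python 3.11.15).

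Text names the 15 genes with the widest difference each way among called genes with 1 sign in all pairs, called members of 42 gene lists and up to 4 members of each list with the lowest p, Ugt2b37, Acsm3 and Bhmt, the 5 widest called genes each way for each difference between tissues, and called neighbours with at most 3 genes between. Others are said to be chosen after their values were seen. The members and lists were chosen with earlier results of these data known. Alternatives were the block, the pseudocount, the filter, the scaling, single arrays, an intensity trend, leaving out each pair and a fit of 3 tissues.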

Additional observations from a re-analysis of the deposited data

Results flagged for a closer look

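The sex difference of some genes differed between kidney and another tissue by the interaction term of a limma fit, and the 5 widest in each direction are given here as kidney minus the other tissue, on the log2 scale. Against liver the value was 4.92 for Acsm3, 4.86 for Ugt2b37, 4.51 for Cyp2j13, 3.62 for Pzp and 3.58 for Slc7a13, and in the other direction -3.52 for Hsd3b5, -2.99 for Bhmt, -2.04 for Ly6f, -2.0005 for Abcc3 and -1.80 for Gsta2. The sex difference of Hsd3b5 lay in liver, and it was dim in kidney of both sexes, at 11.1 in male and 14.4 in female samples. Ugt2b37, Cyp2j13, Slc7a13 and Ly6f were dim in liver of both sexes, the highest being Slc7a13 with means of 109 in male and 137 in female liver, so the difference there could not be measured well.

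Against hypothalamus the value was 5.26 for Ugt2b37, 4.87 for Acsm3, 4.85 for Cyp2j13, 4.09 for Cyp7b1 and 3.59 for Slc22a30, and in the other direction -3.13 for Bhmt, -2.10 for Ly6f, -1.81 for Abcc3, -1.51 for Ugt2b34 and -1.26 for Gsta2. Cyp7b1 was measured in hypothalamus at 367 ± 14.2 in male and 366 ± 18.7 in female samples (SD, n = 3 each), while the other 9 were dim there in both sexes, the highest being Slc22a30 with means of 71.4 in male and 65.1 in female hypothalamus.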

How the results depend on the processing

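All 3 counts of called probe sets moved with the settings. In kidney 128 autosomal probe sets were called (86 higher, 42 lower in male). With no replicate block the paired count fell to 25 (15 and 10), and 64 were called with the pseudocount divided by 4, 31 with no filter, 31 on the first arrays only, 73 on the technical replicate arrays only and 279 (150 and 129) with all pairs of 3 tissues in 1 fit. Leaving out 1 pair gave 51 to 87 calls. The difference from liver had 42 calls, and 20 with no replicate block, 23 with the pseudocount divided by 4, 21 with no filter, 19 on the first arrays only and 2 to 26 with 1 pair left out. The difference from hypothalamus had 38 calls, and 19 with no replicate block, 19 with the pseudocount divided by 4, 106 with 4 times the pseudocount, 24 with no filter, 58 with a stricter filter, 14 on the first arrays only, 60 with an intensity trend and 5 to 16 with 1 pair left out. The cause of these moves was not tested, except that single arrays and left-out pairs hold fewer data. Under quantile normalization and median centring the kidney count was 111 and 131.

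Of the 62 named genes called, 17 were called under every one of the alternatives run on them: Aadat, Abcc3, Acsm3, Bhmt, Ces1f, Cyp2d9, Cyp2e1, Cyp2j13, Cyp7b1, Gsta2, Pzp, Serpina6, Serpinf2, Slc22a30, Slc7a13, Ugt2b37 and Ugt8a. The other 45 lost their call under 1 or more, most often with no filter or no replicate block (40 genes each) or on the first arrays only (38 genes). None of the called named genes turned its sign under these alternatives, but leaving out a pair or the block could not turn it. Dim genes are limited by signal near the bottom of the scale, and 3 pairs leave few degrees of freedom.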
